A study of Arabidopsis thaliana with 2 samples.

Results

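The 29 Aux/IAA genes and the 6 TIR1/AFB genes of Arabidopsis thaliana encode repressors and receptors of the response to the plant hormone auxin. The 35 genes were chosen by family, from their AGI locus numbers, out of 27444 nuclear protein-coding genes. A region of the deposited LHY list was counted for a gene when its midpoint lay inside the gene or within 2000 bp of either end. By this rule 49 of the 14718 regions lay in reach of 28 members, and no region was in reach of more than 1 member.

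TIR1 and its AFB relatives are F-box proteins, the substrate-binding subunits of an SCF ubiquitin ligase. Auxin glues a receptor to the degron in domain II of an Aux/IAA protein, which is then degraded. Aux/IAA proteins otherwise hold auxin response factors (ARFs) in check by recruiting TOPLESS co-repressors, and many Aux/IAA genes are themselves rapidly induced by auxin, which closes a negative feedback loop. In seedlings the pathway drives hypocotyl elongation, tropisms and root branching. LHY, a MYB-like clock protein, is most abundant around dawn and acts mainly as a repressor of its targets.

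The regions come from chromatin immunoprecipitation with sequencing (ChIP-seq) on whole 2-week-old seedlings, collected 2 h after dawn and fixed in 1% formaldehyde for 10 min. Wild-type plants of the Ws ecotype gave 1 library, and plants of the same ecotype carrying lhy-21, a knock-out of LHY, gave 1 library. Antiserum to full-length LHY was used for each, and each library pooled 9 immunoprecipitations. No other allele or treatment is given in the labels. A region is a stretch where wild-type reads exceeded lhy-21 reads, so the list holds 1 direction only, and with 1 library per genotype no difference between the genotypes has a replicate check. The authors gave each region a score, whose scale no label or header states. Scores serve below to rank and describe regions within this list. In the whole list scores ran from 2.00 to 213 with a median of 10.1. Read depth was not analysed here. A gene with no listed region is not shown to be unbound.

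The families were often in reach of a region, and their median best score was below that of all genes with a region. Of the 35 members, 28 had a region (80.0%), where 52.3% of all protein-coding genes had one. The count was 22 of 29 for the Aux/IAA genes (75.9%) and 6 of 6 for the receptors (100%). All genes of the families were counted, so no interval for sampling of genes is given. At least 2 regions were found at 14 members (40.0%), against 23.6% of all genes. Counting only genes with a region, it was 14 of 28 members and 6476 of 14348 genes, which lie closer together. The highest score at a member had a median of 12.0 over the 28 members with a region, against 15.7 over all genes with a region. The quartiles overlapped widely, at 6.11 to 22.3 for these members and 7.97 to 33.8 for all genes with a region. Of these 28 members, 11 lay above the median of all genes with a region, which 50% of such genes do by construction. No enrichment test was run, because the members were picked with results of these data known.

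**Figure D1:**
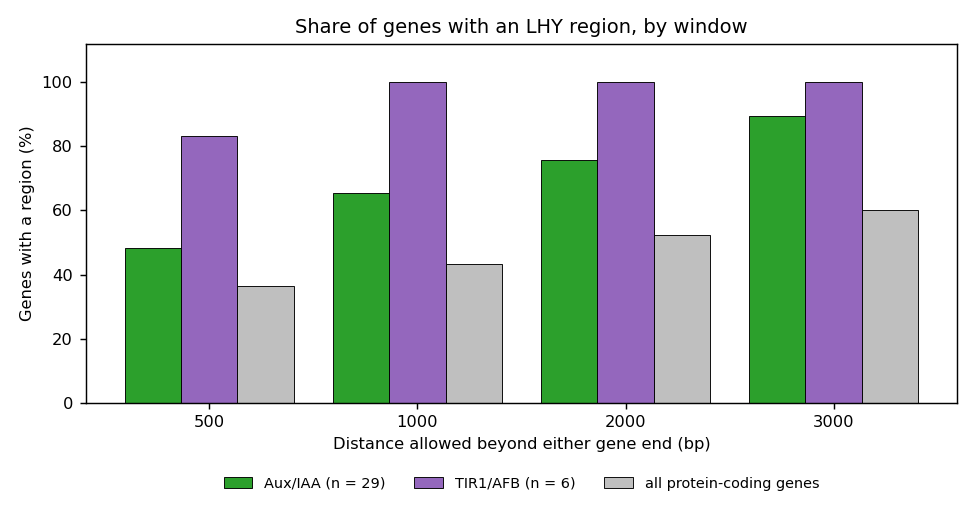
Share of genes with at least 1 LHY region, for the 29 Aux/IAA genes, the 6 TIR1/AFB genes and all 27444 protein-coding genes, as the distance allowed beyond either gene end grows (x axis, bp). Bars show percent of genes; at 500 bp they stand at 48.3%, 83.3% and 36.5%, and at 3000 bp at 89.7%, 100% and 60.3%.

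The window of a gene grows with its length, and the sequence beyond its ends can belong to neighbouring genes. The members had a median length of 1937 bp, against 2078 bp for all genes. It was 1740 bp for the Aux/IAA genes and 2953 bp for the receptors, whose windows are thus wider. The part of each window not covered by any protein-coding gene had a median of 2248 bp for members and 2000 bp for all genes. By family it was 2523 bp for the Aux/IAA genes and 1855 bp for the receptors, the reverse of the order in gene length. All genes were also divided into 4 bins of equal size by this length. In the bin with the most such sequence 10 of 11 members had a region, against 49.6% of all genes in that bin. In the bins below it was 8 of 13 members against 56.1%, 6 of 6 against 54.8%, and 4 of 5 against 48.7% in the bin with the least. The strongest region of a member was in reach of no other protein-coding gene at 11 of 28 members (39.3%), against 17.8% of all genes with a region. For 17 members (60.7%) the member was itself the nearest protein-coding gene to its strongest region, which held for 53.7% of all genes with a region. At the other 11 members another gene lay nearer. To which of the genes such a region belongs was not tested.

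Width and score of the regions at the members had medians below those of the whole list. Their median width was 253 bp (range 105 to 1395 bp), against 285 bp in the whole list, and their median score was 8.58, against 10.1. Midpoints lay inside the member for 9 of the 49 regions and outside it for 40. A region covered a gene end at 12 of 35 members (34.3%), against 22.1% of all genes. Counting only genes with a region, it was 12 of 28 members and 6061 of 14348 genes, which are similar shares. The gene table used gives no strand, so promoter and downstream sides were not told apart, and sides are given as towards lower or higher chromosome coordinates.

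**Figure D2:**
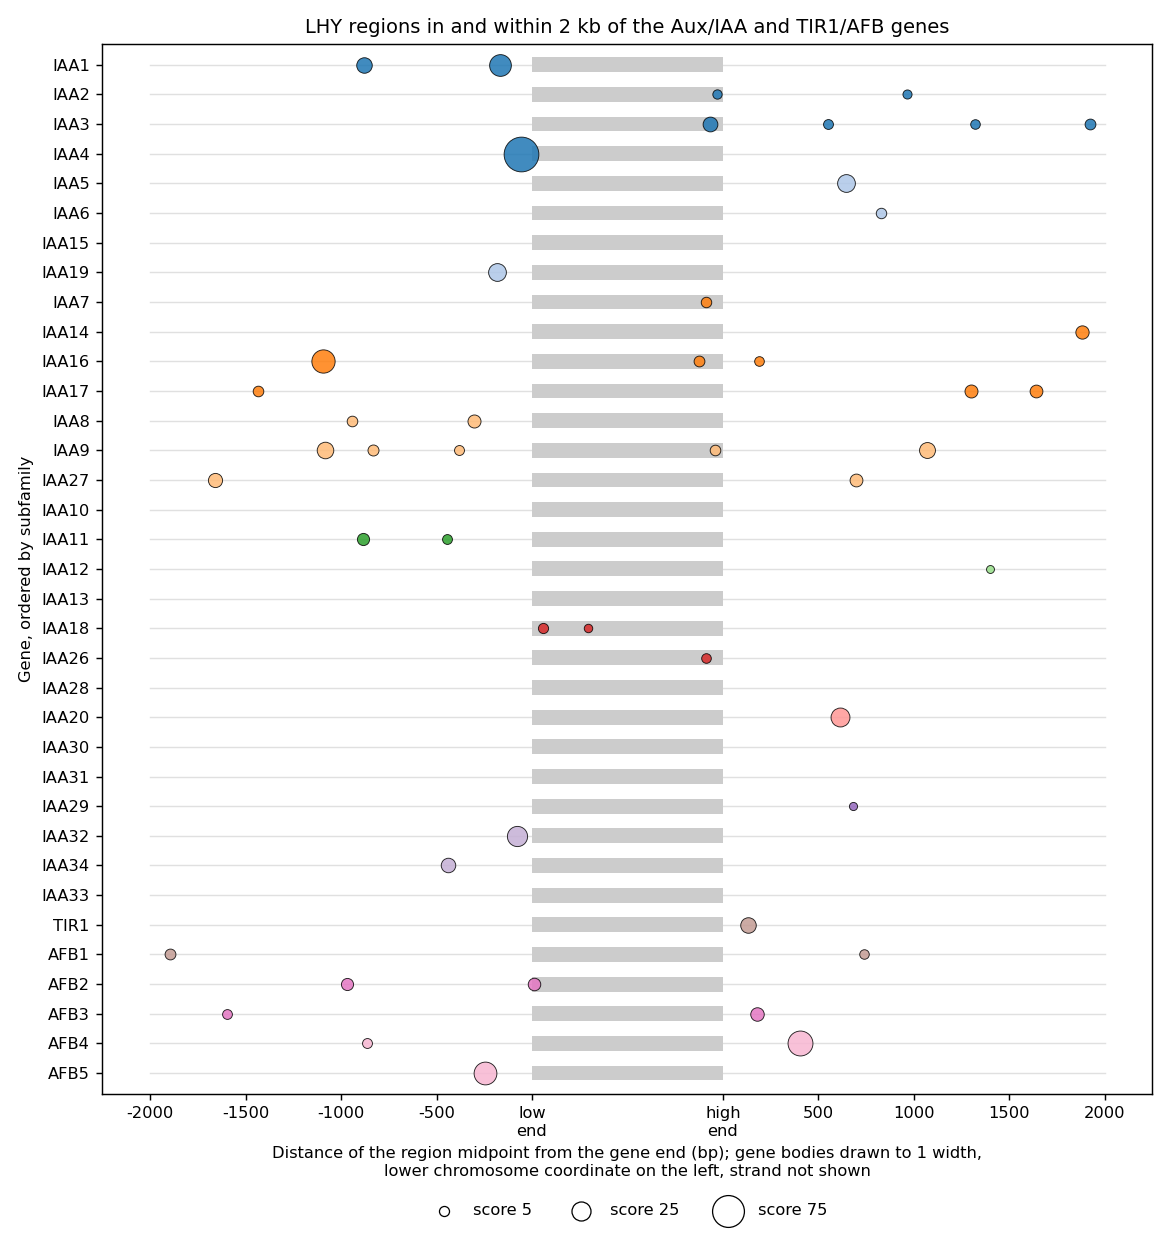
Place of the 49 regions at the 35 genes, ordered by subfamily; the x axis is the distance of a region's midpoint from the gene end in bp, gene bodies are drawn to a common width, and circle area grows with the score. IAA4 carries the largest circle (score 89.8) at its low-coordinate end, and 7 rows are empty.

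The Aux/IAA genes are described by sequence subfamily, beginning with IAA1 (AT4G14560), IAA2 (AT3G23030), IAA3 (AT1G04240) and IAA4 (AT5G43700). These encode short-lived repressors of early auxin response. All 4 had a region that covered an end of the gene, against 22.1% of all genes and 6061 of the 14348 with a region. In all 4 that region was the strongest in reach. IAA4, also named ATAUX2-11, had the highest score of the 35 members, 89.8, ranked 314 of 14718 regions. Its region ran on chromosome 5 from 17549746 to 17550497 (TAIR9), with the midpoint 57 bp outside the lower end of the gene. It was the only member with a region among the 1000 strongest of the list (scores of at least 58.0), where 6.07% of all genes had one, or among the strongest 10%, where 8.71% had one. IAA4 was the nearest gene, with AT5G43695 and AT5G43710 also in reach at 1509 and 1981 bp, and it had no other region.

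IAA3, whose alternative name SHY2 marks its short-hypocotyl mutants and which limits root meristem size downstream of cytokinin, is the closest relative of IAA4. Its strongest region scored 14.0, on chromosome 1 from 1129279 to 1129883, with the midpoint 108 bp inside the higher end. Another 3 regions followed on that side at 548, 1319 and 1922 bp outside the gene, with scores of 4.75 (1130126 to 1130349), 4.33 (1130927 to 1131091) and 6.20 (1131552 to 1131671). IAA3 therefore had 4 regions to the single one of IAA4, and its best score was far below that of IAA4.

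IAA1, known from the auxin-resistant mutant axr5, had a region of score 33.5 on chromosome 4 from 8360443 to 8361215, with its midpoint 166 bp beyond the lower end. Its other region scored 15.7 and ran from 8359909 to 8360317, at 882 bp. At IAA2, whose promoter is widely used as an auxin reporter, both regions were weak. They scored 3.94 and 3.61, on chromosome 3 from 8181977 to 8182123 and from 8183000 to 8183118. The best scores of the 4 genes thus ran from 3.94 to 89.8.

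The subfamily of IAA7 (AT3G23050), IAA14 (AT4G14550), IAA16 (AT3G04730) and IAA17 (AT1G04250) is known through dominant degron mutants (axr2 for IAA7, slr for IAA14, axr3 for IAA17) that resist auxin, and IAA14 blocks lateral root initiation when stabilized. All 4 genes had a region, against 52.3% of all genes. None of the 4 had a region over an end of the gene, against 22.1% of all genes and 6061 of the 14348 with a region. IAA16, in which a stabilizing mutation reduces responses to auxin and abscisic acid, had the highest score, 38.8. It came from chromosome 3, 1286596 to 1287522, with a midpoint 1095 bp beyond the lower end of IAA16 and only 298 bp from PR4, a pathogenesis-related gene. The other regions of IAA16 scored 6.21 (1290471 to 1290635) and 4.43 (1290894 to 1291270), centred 338 bp inside and 190 bp outside the higher end.

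IAA14 had 1 region, scoring 10.8, on chromosome 4 from 8351941 to 8352345 and centred 1879 bp outside its higher end. IAA7 had 1 region, scoring 5.70, on chromosome 3 from 8196865 to 8196994 and centred 232 bp inside its higher end. IAA17 had 3 regions on chromosome 1. The strongest, with 10.2, ran from 1139883 to 1140045, and the next, with 9.79, from 1140174 to 1140430. Both were nearer to MPI7 than to IAA17, and the weaker was centred inside MPI7. The remaining region of IAA17 scored 5.89, from 1134315 to 1134974, and was centred 1433 bp outside the lower end, within the long non-coding RNA gene AT1G04253.

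Of these genes, 6 stand on the chromosomes as 3 neighbouring pairs, each of an IAA1-4 type gene and an IAA7/14/17 type gene. IAA1 and IAA14 are 10732 bp apart, IAA2 and IAA7 12510 bp, and IAA3 and IAA17 6388 bp, with no protein-coding gene between the members of a pair. In each pair the IAA1-4 member had a region over 1 of its ends (3 of 3 genes) and its partner had none there (0 of 3). As background, such a region was found at 22.1% of all genes, or at 6061 of the 14348 genes with a region. Best scores were 33.5 at IAA1 and 10.8 at IAA14, 3.94 at IAA2 and 5.70 at IAA7, and 14.0 at IAA3 and 10.2 at IAA17. So the IAA1-4 member scored higher in the pairs of IAA1 and IAA3, and lower in that of IAA2. With 3 pairs from 1 region list these differences were not tested.

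The stretches between the paired genes held regions of their own. Between IAA14 and IAA1 there were 5, between IAA2 and IAA7 4, and between IAA3 and IAA17 4, and no region was in reach of both genes of a pair. Some lay more than 2000 bp from either gene. A region of score 26.4 between IAA2 and IAA7, on chromosome 3 from 8190438 to 8190775, was centred 3999 bp from IAA7 and 8511 bp from IAA2. It exceeded every region in reach of either gene, and it had a weak neighbour of score 4.64 from 8190884 to 8191000. Between IAA14 and IAA1, regions of 11.1 (8352522 to 8353070) and 14.1 (8355911 to 8356095) were likewise out of reach of both.

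**Figure D3:**
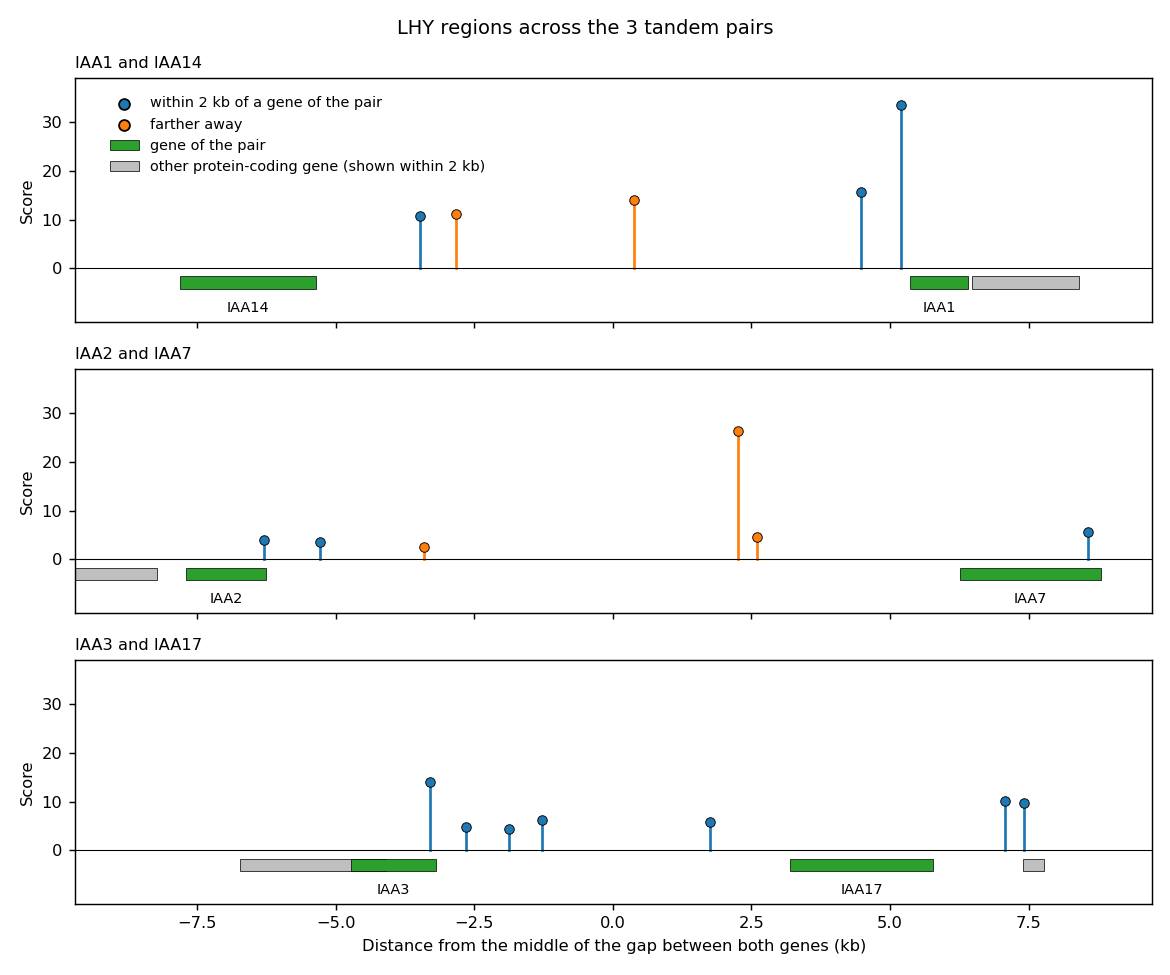
Regions across the 3 tandem pairs, with the x axis as distance in kb from the middle of the gap between both genes and the y axis as the authors' score; boxes below 0 are genes. Blue points lie within 2 kb of a gene of the pair and orange points farther away, among them the score of 26.4 between IAA2 and IAA7.

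Among IAA5 (AT1G15580), IAA6 (AT1G52830), IAA15 (AT1G80390) and IAA19 (AT3G15540), 3 of 4 genes had a region, 1 each. Of all genes 52.3% had at least 1. IAA19, named MSG2 for mutants that fail to bend in response to gravity and light, represses ARF7 in the growing hypocotyl. Its region scored 21.5, on chromosome 3 from 5263580 to 5264050, covered the lower end of the gene and was in reach of no other gene. IAA5 had the same rounded score, 21.5, on chromosome 1 from 5366991 to 5367294, but its region was centred 645 bp outside IAA5 and 154 bp from AT1G15590. IAA6, the gene of shy1, had a region of 5.67, from 19674412 to 19674548 on chromosome 1 and 827 bp outside. IAA15 had none by this rule, and its nearest region, with a score of 32.4, was centred 2013 bp away, just past the limit.

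All of IAA8 (AT2G22670), IAA9 (AT5G65670) and IAA27 (AT4G29080) had 2 or more regions, so that 9 regions fell to 3 genes. They encode the longer Aux/IAA proteins. Of all genes 23.6% had 2 or more regions, as did 6476 of the 14348 genes with a region. IAA9 had 5, the most of any member, on chromosome 5. The strongest scored 18.3 (26252242 to 26252409) and 16.6 (26257456 to 26257767), on opposite sides of the gene at 1082 and 1067 bp, and the others scored 6.54 (26252499 to 26252646), 5.88 (26256311 to 26256522) and 4.84 (26252951 to 26253104). No other protein-coding gene was in reach of any of the 5. IAA8 had scores of 10.3 (chromosome 2, 9635975 to 9636108) and 5.90 at 304 and 945 bp outside its lower end. IAA27, also called PAP2 as a phytochrome-associated protein, had 12.7 and 9.83, and its stronger region (chromosome 4, 14321409 to 14321861) lay 1660 bp away, nearer to emb2726 and AT4G29070. No region of the 3 genes covered a gene end, where 22.1% of all genes and 6061 of the 14348 with a region had such a region.

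IAA10 (AT1G04100), IAA11 (AT4G28640), IAA12 (AT1G04550), IAA13 (AT2G33310), IAA18 (AT1G51950), IAA26 (AT3G16500) and IAA28 (AT5G25890) make up the next 7 Aux/IAA genes. Of these, 4 had a region, near the 52.3% of all genes. IAA12 (BODENLOS), which with its partner ARF5 sets up the embryonic root, had 1 region of score 2.07, ranked 14661 of 14718. This region (chromosome 1, 1243450 to 1243664) was centred inside AT1G04555. IAA13, its close relative, had none in reach. IAA11 had scores of 8.64 (chromosome 4, 14140973 to 14141380) and 4.74, on the side of ABCB23, while IAA10 had none. The stronger region was centred 886 bp outside IAA11 and only 122 bp from ABCB23, and the weaker was nearer to IAA11. IAA18 had 5.24 (chromosome 1, 19305056 to 19305377) and 2.79, both inside the gene, the stronger over the lower end. IAA26, or PAP1, had 4.39 (chromosome 3, 5614525 to 5614629), 226 bp inside. IAA28, a repressor of lateral root founder cell formation, had none. The 4 genes of this paragraph with a region thus all scored below the median of 10.1 in the list.

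IAA20 (AT2G46990), IAA30 (AT3G62100), IAA32 (AT2G01200), IAA33 (AT5G57420) and IAA34 (AT1G15050) lack domain II, and that of IAA31 (AT3G17600) is only partly conserved. Domain II is the part that binds the receptor. Of these 6 genes, grouped after the values were seen, 3 had a region within 2000 bp, near the 52.3% of all genes. Within 3000 bp all 6 had one, where 60.3% of all genes did. IAA32 had 28.5, on chromosome 2 from 117697 to 118079, over its lower end and with the midpoint 80 bp beyond it. The region was also 137 bp from PDE331. Its relative IAA34, which acts with it in apical hook growth, had 13.4 (chromosome 1, 5181448 to 5181648), 442 bp outside and nearer to GAT1_2.1. IAA20 had 24.7, on chromosome 2 from 19309202 to 19310169, but the midpoint lay 43 bp inside ABCB4, an auxin transporter gene, and 614 bp from IAA20. IAA30, IAA31 and IAA33 had none within 2000 bp. IAA29 (AT4G32280), a target of phytochrome-interacting factors in shade, had a region of 2.35 (chromosome 4, 15585484 to 15585692) centred inside AT4G32285.

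**Figure D4:**
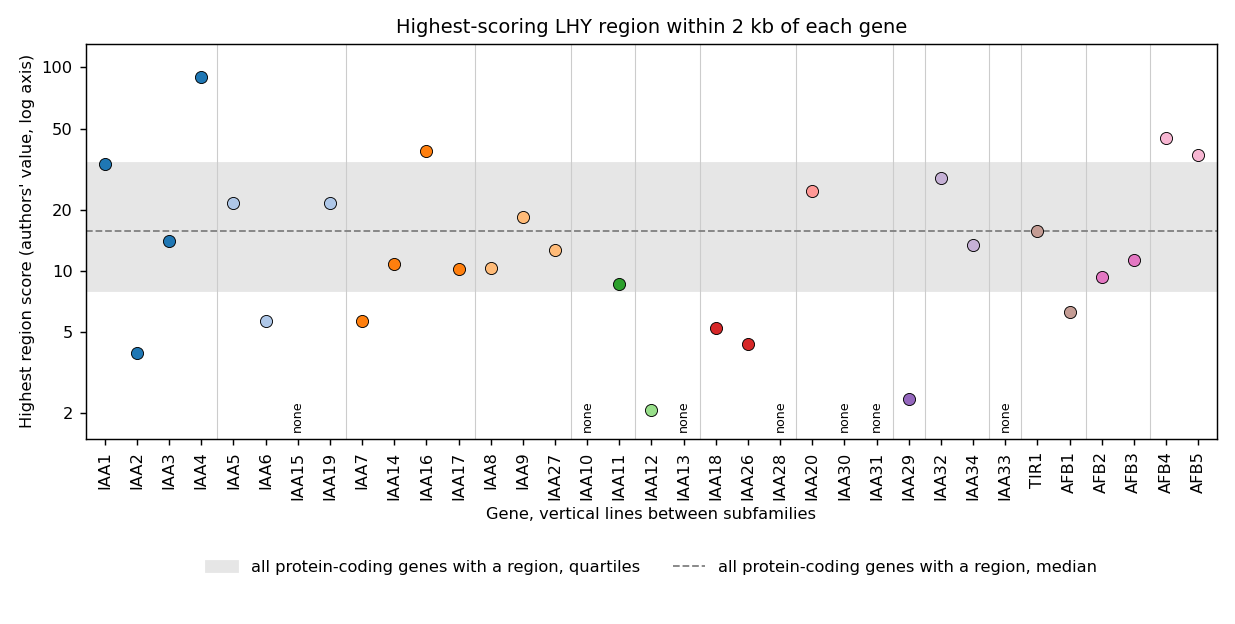
Highest region score within 2 kb of each of the 35 genes (log axis), in subfamily order, with the quartiles (7.97 to 33.8) and median (15.7) of all protein-coding genes with a region. IAA4, AFB4, IAA16 and AFB5 lie above the upper quartile, and 7 genes are marked as having none.

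Each of the 6 receptor genes had a region, against 52.3% of all genes. In 5 of them a region covered a gene end, against 22.1% of all genes and 6061 of the 14348 genes with a region. AFB4 (AT4G24390) and AFB5 (AT5G49980), the pair of receptors that mediate responses to the auxin herbicide picloram, had the highest scores. The AFB4 region scored 44.8 and was 1395 bp wide, the widest of the 49, on chromosome 4 from 12615948 to 12617342. It covered the higher end of AFB4, but its midpoint was 406 bp outside AFB4 and 333 bp from CIPK8, a protein kinase gene. The AFB5 region scored 37.0, on chromosome 5 from 20333232 to 20334068, covered the lower end of AFB5 and was centred 246 bp outside it and 477 bp from PPOX. A second AFB4 region scored 4.79, from 12612130 to 12612293, and was centred inside AT4G24370.

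TIR1 (AT3G62980), the founding auxin receptor, had 1 region of score 15.8, on chromosome 3 from 23276286 to 23277234. It covered the higher end of the gene, with the midpoint 129 bp outside, and no other gene was in reach. AFB1 (AT4G03190), the closest relative of TIR1 and the receptor of very fast auxin responses in roots, was the receptor with the lowest best score. Its regions scored 6.25 (chromosome 4, 1402884 to 1403098, 1895 bp away) and 4.25 (1408015 to 1408271, 740 bp away), and other genes were nearer to both.

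AFB2 (AT3G26810) and AFB3 (AT1G12820), close relatives of each other, act together with TIR1 in root and shoot auxin response. AFB2 had 9.29, on chromosome 3 from 9867629 to 9867749 and 37 bp inside its lower end, and 8.58, from 9866579 to 9866785. AFB3 had 11.3, on chromosome 1 from 4371287 to 4371672 and 181 bp outside its higher end, and 4.64, from 4367100 to 4367226. This weaker region was centred 1596 bp outside AFB3, nearer to AT1G12805 (26 bp) and AT1G12810 (92 bp). For midpoints within 2000 bp, the receptors in order of best score ran AFB4, AFB5, TIR1, AFB3, AFB2 and AFB1. Within 3000 bp, or with any overlap of a region with the window, AFB3 scored 32.6 and stood above TIR1 at 15.8. With each region given to its nearest gene only, AFB4 and AFB1 had none. No error is attached to these scores, so neighbours in this order cannot be separated.

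The limit of 2000 bp decided a few of these counts. Just inside it lay the single region of IAA14 (1879 bp), 1 region of AFB1 (1895 bp) and 1 of IAA3 (1922 bp). Just outside it were regions at IAA15 (2013 bp, score 32.4), IAA30 (2019 bp, 13.9) and AFB3 (2071 bp, 32.6). The AFB3 region beyond the limit, on chromosome 1 from 4373025 to 4373714, scored higher than either region within it. With any overlap of the region in place of its midpoint, 30 members had a region (53.8% of all genes), and with regions within 200 bp merged, 27 (52.1%). With each region given to its nearest protein-coding gene only, 21 members had one, against 34.4% of all genes. Among regions above the median score it was 18 members, against 34.5%, and with a window of 1000 bp 25, against 43.2%.

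The rest of the auxin pathway was read by the same rule from 6 lists of 70 genes, of which 49 had a region (70.0%), again beside 52.3% of all genes. Their best scores had a median of 15.1, against 12.0 at the members. Of the 23 ARF genes, the transcription factors that Aux/IAA proteins hold back, 15 had a region, led by ARF16 (83.2) and ARF6 (55.6). ARF5, the partner of IAA12, had none, and ARF7, the partner of IAA19, had 16.6. Of the TOPLESS co-repressor genes 4 of 5 had a region, with 123 at TPR1 and 28.8 at TPR2. Among genes for the SCF ligase and its cullin modification 6 of 8 had one, with 90.5 at the Skp1-like subunit gene ASK1, 1952 bp away, and 70.7 at ECR1, of the RUB-activating enzyme.

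Auxin synthesis genes counted 10 of 14, with 32.0 at TAR1 and 19.4 at YUC8. Transport genes counted 10 of 12, with 86.8 at the influx carrier gene LAX2 and 72.2 at the PIN-FORMED gene PIN6. Of the GH3 genes, whose enzymes conjugate auxin to amino acids, 4 of 8 had a region, with 81.3 at GH3.2 and 45.1 at GH3.5. Each of these 6 lists but that for synthesis thus held a gene with a score of at least 81.3. So did the members, with IAA4 at 89.8, followed by AFB4 at 44.8. The lists hold 70 genes, against 35 members. Of these leading regions, that of TPR1 was centred 43.5 bp inside the gene. Those of LAX2, GH3.2, ARF16 and ASK1 were centred 1309, 1699.5, 1771.5 and 1952 bp outside.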

How the data were processed

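Per the labels, the wild-type and lhy-21 libraries were made from anti-LHY chromatin fragmented to 100 to 1000 bp. The submitters' processing notes name TAIR9, Bowtie and the peak caller MACS2 2.0.10.09132012. Other settings are not given in the sources used here. Scores are used as deposited by the authors, on an unstated scale.

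Region positions are TAIR9, counted from 1, and the midpoint stands for the region. Genes came from a RefSeq table of TAIR10.1, whose nuclear sequence is that of TAIR9. All 35 members and 70 other auxin genes matched by locus, 6 members under another main symbol. As a check, 34.8% of midpoints lay inside genes, and 47.3% to 58.0% after shifts of 500 or 1000 bp. No gene coordinates are printed. No sequence was used, so motifs and degrons were not searched.

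Counting was done in Python 3.11.15 with pandas 2.3.3 and was tested on simulated regions. Members, subfamilies and lists were chosen with earlier results of these data known, and no set test was run. The naming rule gave all members, with full positions for the 10 highest scores, the tandem pairs and the receptors, and the 2 highest genes of each other list. The 9 alternatives were window, overlap, score limit, merging and nearest-gene choices.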

Additional observations from a re-analysis of the deposited data

How the results depend on the processing

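No paired analysis was possible because each genotype has 1 library, and leaving out a library was not possible for the same reason. Scores carry no error and read depth was not analysed here. The 5 summary values are 28 members, 22 Aux/IAA genes and 6 receptors with a region, 49 regions, and a median best score of 12.0. They stayed within 1.5 times with windows of 1000 bp (25 members, 43.2% of all genes) and 3000 bp (32, 60.3%), any overlap (30, 53.8%), merging within 200 bp (27, 52.1%) and the nearest gene only (21, 34.4%). With 500 bp, 19 members had a region (36.5% of all genes), of them 14 Aux/IAA genes, with 22 regions. Above the median score there were 18 members (34.5% of all genes), 14 Aux/IAA genes and 20 regions, with a median best score of 19.9. The 1000 strongest regions (6.07% of all genes) and the strongest 10% (8.71%) each left 1 member, the Aux/IAA gene IAA4, with 1 region of score 89.8, and 0 receptors. These stricter settings keep fewer regions by construction. Under the 9 alternatives the best score at the 28 members, examined after the values were seen, stayed within 1.5 times in 158 of 252 cases, was lost with the region in 84, and was lower in 8 and higher in 2. Merging took IAA14 out of reach, and the nearest-gene choice left IAA5, IAA12, IAA20, IAA29, IAA34, AFB1 and AFB4 without a region.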
